A study of Danio rerio with 7 samples.

Results

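The mitochondrial solute carriers of the SLC25 family were followed in red cell precursors of ddx41 mutant zebrafish embryos. Members were the genes whose zebrafish symbol begins with slc25a, in capitals or lower case, without slc25a37 and the slc25a38 IDs. The rule found 56 Ensembl IDs among the 32105 genes of the count table, of 59 IDs with such a symbol. Polyadenylated RNA was sequenced from gata1-positive erythroid cells at 40 hours post fertilization, in 4 libraries of sibling zebrafish (replicates 1, 3, 4 and 5) and 3 libraries of ddx41 mutants (replicates 2, 3 and 4). GATA1 is the master transcription factor of erythroid cells; DDX41 is an RNA helicase of the DEAD-box family. The sources used here give neither the mutant allele, the genotypes among the siblings, the number of embryos per library nor whether libraries came from separate clutches. The p-values therefore reflect library-to-library spread, which may be technical.

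SLC25 carriers sit mostly in the inner mitochondrial membrane, which small charged molecules cannot cross unaided. Each carrier exchanges or imports a particular set of them, such as ADP and ATP, phosphate, amino acids, carboxylates, nucleotides or cofactors. Red cell precursors depend on this traffic for ATP and for haem, whose synthesis begins and ends in the mitochondrion.

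Most carriers did not pass the test, and a few single genes moved in opposite directions. Of the 56 members, 44 passed the filter on low counts. By the quasi-likelihood test of edgeR, with p-values adjusted over all tested genes by Benjamini-Hochberg (threshold 0.05), 2 members were higher in mutants, 3 were lower and 39 did not pass. The called members were 11.4% of those tested, beside 16.6% of all 18565 tested genes (8.87% higher and 7.69% lower). SLC25A5, an ADP/ATP carrier gene, and SLC25A35 were the members that rose. SLC25A47, one of the IDs named SLC25A15 and slc25a51b were the members that fell. These 5 also passed with each of the 7 libraries left out in turn. With a block for the replicate number, only SLC25A47 still passed. The closing section gives the limits of that fit.

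The median log2 fold change was -0.16 over the tested members, 17 of them above and 27 below 0, and 0.04 over all tested genes. Without ddx41 mutant replicate 3, 47 members were tested, 5 were lower and the median was -0.25. That fit called 17% of the members, beside 14.5% of all its tested genes (median 0.0188). The groups of libraries did not overlap at 12 members (27.3%), 4 higher and 8 lower, beside 27.5% of all tested genes (14.6% higher and 12.8% lower). Of the 39 members that did not pass, 28 had fitted changes under 1.5-fold, and 9 had an unadjusted p under 0.05. In the simulation described with the processing, 39% of genes changed 2-fold and 90% of those changed 4-fold were recovered. That simulation had 136 calls, beside 3073 in these data, which makes its adjusted threshold the stricter one. Its shares therefore do not carry over to the members that did not pass, and some of those may have changed undetected.

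**Figure D1:**
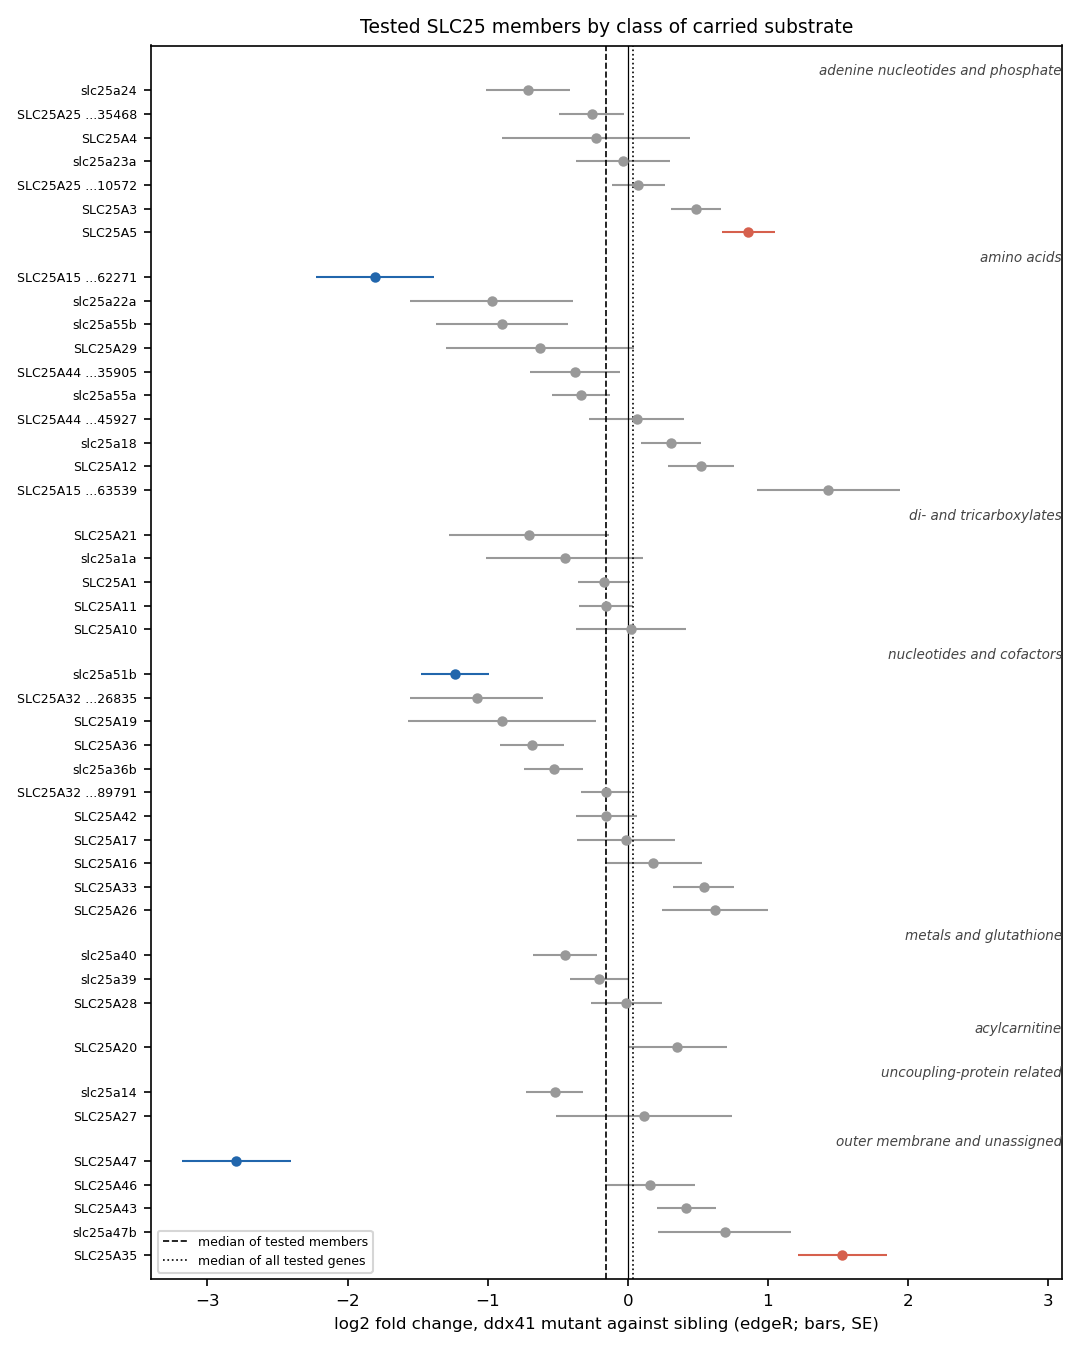
Log2 fold change of ddx41 mutants against siblings for the 44 tested SLC25 members, grouped by class of carried substrate, with bars for the SE. Red and blue points passed the test as higher and lower, grey points did not, and the last digits of the ID mark members that share a symbol. The 5 called members run from -2.79 to 1.53, and the dashed median of the members is at -0.16 beside the dotted median of all tested genes at 0.04.

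Totals per library ran from 11814324 to 14363255 counts. Markers of the erythroid lineage were abundant in every library, with a summed level over 9 IDs of 43220 to 63660 CPM (counts scaled to library size) in siblings and 19900 to 37120 CPM in mutants. Of these 9 IDs 1 was called higher and 1 lower, while 8 had log2 fold changes below 0 (median -0.46). The ID called higher was SLC4A1 ENSDARG00000024560, at 47.3 to 58.4 CPM in siblings. The other SLC4A1 ID, at 9955 to 12100 CPM in siblings, had a log2 fold change of -0.46 and was not called. The haem synthesis gene alas2 was not called (log2 fold change -0.06), while the embryonic globin gene hbae1.3 was lower (log2 fold change -1.94, edgeR adjusted p = 0.000998). The ddx41 transcript was not analysed here. Summed markers of macrophages (12 IDs, 4 of 11 tested lower) were 732.6 to 1494 CPM in siblings and 323.8 to 624.1 CPM in mutants. Summed thrombocyte markers (4 IDs, 1 of 3 tested lower) were 247.6 to 327.6 against 131.1 to 243.4 CPM, and summed muscle markers (10 IDs, 4 of 10 lower) were 56.8 to 111.9 against 48.7 to 52.3 CPM. Summed endothelial markers (4 IDs, 1 of 4 higher) were 35.03 to 60.3 against 83.5 to 177.5 CPM. The groups did not overlap for these 5 sums. Neutrophil markers (3 IDs, 1 of 3 higher) summed to 1774 to 3209 CPM in siblings and 1829 to 3343 CPM in mutants. Epidermal markers (5 IDs, 1 of 5 higher) summed to 279.4 to 1081 against 676.4 to 1384 CPM. Neural markers (7 IDs, 1 of 6 tested lower) summed to 76.3 to 188.9 against 44 to 202.3 CPM. The groups overlapped for the neutrophil, epidermal and neural sums. Over all tested genes 8.87% were called higher and 7.69% lower. The part of all these markers in the SLC25 results was not tested. Single genes weighed heavily in some sums. In siblings and mutants hbae1.3 was at 14520 to 27900 and 3081 to 7026 CPM. The macrophage ID MFAP4 ENSDARG00000088745 was at 204.9 to 745.5 and 38.6 to 85.1 CPM. The thrombocyte gene gp9 was at 94.5 to 148.9 and 28.3 to 53.4 CPM. The endothelial gene stab2 was at 4.22 to 10.9 and 39.5 to 79.2 CPM. Whether the sums would overlap without these single genes was not computed. Of the tested thrombocyte and endothelial markers 2 and 3 were not called. In bulk samples, fewer cells of a type and less RNA per cell cannot be told apart.

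The carriers of adenine nucleotides and phosphate supply ATP synthase with its substrates and export the product. Of their 7 tested members 1 rose (14.3%) and none fell, beside 8.87% and 7.69% of all tested genes. SLC25A5 (ENSDARG00000092553), an ADP/ATP carrier known as ANT2 in mammals, was at 371, 358, 330 and 372 CPM in sibling replicates 1, 3, 4 and 5. It was at 737, 514 and 697 CPM in mutant replicates 2, 3 and 4. Every mutant library was above every sibling library, and mutant replicate 3 was the lowest of its group. The transcript was 1.82-fold higher (log2 fold change 0.86, SE 0.19, edgeR adjusted p = 0.00589). In RefSeq's gene order slc25a5 lies beside slc25a43, and SLC25A43, a carrier without an assigned substrate in this grouping, was not called (log2 fold change 0.42, SE 0.21, adjusted p = 0.200).

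The other ADP/ATP carriers had few counts. SLC25A4, the heart and muscle form in mammals, was at 0.920 to 1.999 CPM in siblings and 0.4999 to 1.61 CPM in mutants and was not called (log2 fold change -0.23, edgeR adjusted p = 0.859), with a sign that turned when ddx41 mutant replicate 2 was left out (0.13). SLC25A6 did not pass the filter, with 0 to 12 counts in siblings and 4 to 14 in mutants. SLC25A3 (ENSDARG00000025566), the phosphate carrier, was at 167, 150.2, 155 and 141 CPM in sibling replicates 1, 3, 4 and 5, and at 249.6, 212 and 183 CPM in mutant replicates 2, 3 and 4. The groups did not overlap, but the difference did not pass (log2 fold change 0.49, SE 0.18, edgeR adjusted p = 0.0787). It passed without ddx41 mutant replicate 4 (adjusted p 0.0317) and with scaling to library totals alone (adjusted p 0.0281). The second SLC25A3 ID held 0 to 12 counts per library and was not tested. The calcium-regulated ATP-Mg/phosphate carriers slc25a24, slc25a23a and both SLC25A25 IDs had log2 fold changes from -0.71 to 0.07, none of which passed.

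SLC25A5 weighed heavily in the family's share of the libraries. All members together took 0.200% ± 0.00234 (SD, n = 4) of a sibling library and 0.225% ± 0.0075 (SD, n = 3) of a mutant library, and the groups did not overlap. Without SLC25A5, a choice made after its values were seen, the shares were 0.165% ± 0.0052 and 0.158% ± 0.01, and the groups overlapped. SLC25A5 made up 17.5% ± 1.89 (SD, n = 4) of the family's sibling counts and 29.7% ± 5.88 (SD, n = 3) of its mutant counts. On the TMM scale the summed levels overlapped too, at 1931 to 2213 CPM in siblings and 2046 to 2296 CPM in mutants. These sums are descriptions and were not tested.

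**Figure D2:**
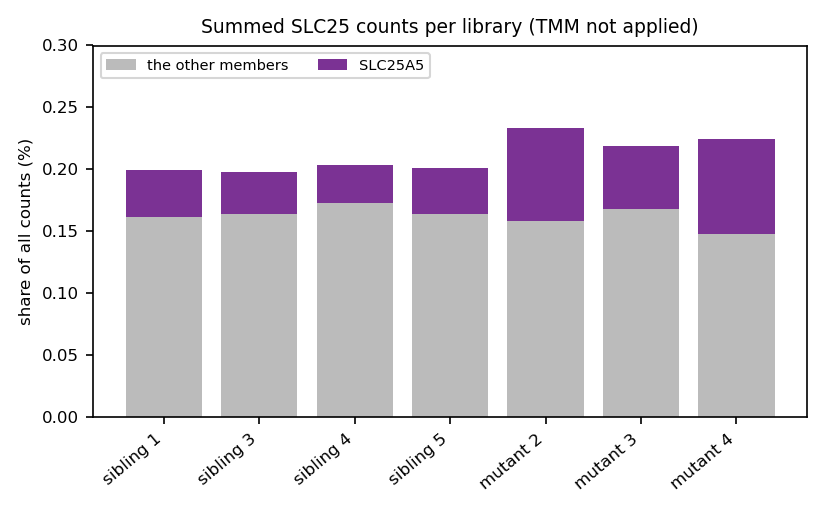
Share of all counts (percent, no TMM scaling) held by SLC25A5 and by the other 55 SLC25 members in each library. The mutant bars reach 0.218% to 0.233% and the sibling bars 0.198% to 0.203%, while the grey parts of the 2 groups overlap.

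Among carriers of amino acids, 1 of 10 tested members fell (10%) and none rose, beside 7.69% and 8.87% of all tested genes. SLC25A15 encodes the ornithine carrier of the urea cycle, and 2 IDs bear this symbol. The first (ENSDARG00000062271) was at 5.68, 5.81, 11.3 and 5.78 CPM in sibling replicates 1, 3, 4 and 5, and at 2.17, 2.38 and 1.59 CPM in mutant replicates 2, 3 and 4. All mutant libraries lay below all siblings, and sibling replicate 4 was well above the rest of its group. It was 3.49-fold lower (log2 fold change -1.80, SE 0.42, edgeR adjusted p = 0.00897), and without sibling replicate 4 its log2 fold change was -1.52 (adjusted p 0.0405). The second ID (ENSDARG00000063539) was at 3.05, 1.47, 1.61 and 1.499 CPM in siblings and at 8.33, 2.38 and 4.82 CPM in mutants. Its groups overlapped and it did not pass (log2 fold change 1.43, SE 0.51, edgeR adjusted p = 0.0688), although it passed without ddx41 mutant replicate 3 (adjusted p 0.0332) and with DESeq2 (adjusted p 0.0434).

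The amino acid carrier slc25a55a (ENSDARG00000020893), which RefSeq's gene table also lists under the older name slc25a22, was at 275.2 to 450.9 CPM in siblings and 276.7 to 351.1 CPM in mutants, and did not pass (log2 fold change -0.33, SE 0.21, edgeR adjusted p = 0.304). Its partner slc25a55b was at 2.63 to 4.35 CPM in siblings and 1.33 to 2.35 CPM in mutants, without overlap, and did not pass either (-0.90, SE 0.47, edgeR adjusted p = 0.219). The glutamate carrier gene slc25a18 and the aspartate/glutamate carrier gene SLC25A12 had log2 fold changes of 0.31 and 0.52 (adjusted p 0.360 and 0.153). A further member of this class, slc25a22a, was at 3.74 to 7.21 CPM in siblings and 0.768 to 4.89 CPM in mutants. It did not pass (-0.97, SE 0.58, edgeR adjusted p = 0.285), although it passed without ddx41 mutant replicate 4 (adjusted p 0.0227). SLC25A13, the second aspartate/glutamate carrier, did not pass the filter. It had 0, 0, 0 and 1 counts in sibling replicates 1, 3, 4 and 5 and 3, 11 and 14 counts in mutant replicates 2, 3 and 4. On these few counts it passed edgeR's test where no filter was applied (adjusted p = 0.0445). Without ddx41 mutant replicate 2 it met the filter only through its mutant counts, so its pass in that fit is no added support.

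Of 11 tested carriers of nucleotides and cofactors, 1 fell (9.09%) and none rose, beside 7.69% and 8.87% of all tested genes. The gene slc25a51b (ENSDARG00000040463), whose mammalian counterpart SLC25A51 brings NAD+ into mitochondria, was at 30.9, 26.7, 30.1 and 26.7 CPM in sibling replicates 1, 3, 4 and 5. It was at 10.9, 16.1 and 9.52 CPM in mutant replicates 2, 3 and 4. The groups were well apart, with mutant replicate 3 the nearest to the siblings. It was 2.35-fold lower (log2 fold change -1.23, SE 0.24, edgeR adjusted p = 0.0031). Its partner slc25a51a had at most 2 counts in any library and was not tested.

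SLC25A36 and slc25a36b, carriers of pyrimidine nucleotides, were both lower on average without passing. SLC25A36 (ENSDARG00000038731) was at 116, 137, 189.7 and 149.6 CPM in siblings and at 80.1, 124 and 72.6 CPM in mutants, and only mutant replicate 3 lay within the sibling range. Its log2 fold change was -0.69 (SE 0.23, edgeR adjusted p = 0.0537), and it passed in 6 of 16 alternatives, DESeq2 and limma-voom among them. For slc25a36b the levels were 24.2 to 28.6 CPM in siblings and 17.4 to 18.7 CPM in mutants, which did not overlap (log2 fold change -0.53, SE 0.21, edgeR adjusted p = 0.0982). SLC25A33, the other carrier of pyrimidine nucleotides, had values in the opposite direction, at 18 to 21.7 CPM in siblings and 22.2 to 32.1 CPM in mutants, and did not pass (0.54, SE 0.22, edgeR adjusted p = 0.104).

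The members linked to haem and iron did not pass, and slc25a37 and the slc25a38 IDs are not among the members. The gene slc25a39 encodes a carrier that imports glutathione in mammals and is needed for haem synthesis in zebrafish. It was at 199.0, 191.8, 226.6 and 203.5 CPM in sibling replicates 1, 3, 4 and 5, and at 190.2, 223.2 and 121.3 CPM in mutant replicates 2, 3 and 4. Mutant replicate 4 lay below all other libraries and the rest overlapped (log2 fold change -0.20, SE 0.21, edgeR adjusted p = 0.564). Its relative slc25a40 was at 21.6 to 30.3 CPM in siblings and 15.8 to 22.6 CPM in mutants (-0.45, SE 0.23, edgeR adjusted p = 0.203). SLC25A28, the iron carrier mitoferrin 2, was at 11.3 to 21 CPM in siblings and 15.4 to 19.1 CPM in mutants (-0.01, SE 0.26, edgeR adjusted p = 0.985). The sign of the slc25a39 value turned when ddx41 mutant replicate 4 was left out (0.01), and that of SLC25A28 turned in 5 of 16 alternatives. SLC25A20, the carnitine/acylcarnitine carrier, did not pass either (log2 fold change 0.36, SE 0.35, edgeR adjusted p = 0.543).

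The 5 tested carriers of di- and tricarboxylates had 0 calls with edgeR, and 0 had an unadjusted p under 0.05. Of all tested genes 16.6% were called. SLC25A1 (ENSDARG00000076381), the citrate carrier, had a log2 fold change of -0.17, and SLC25A11, the oxoglutarate/malate carrier, of -0.15. The members related to uncoupling proteins also had 0 calls of 2 tested, and slc25a14 was at 95.6 to 121.1 CPM in siblings and 55.98 to 93.6 CPM in mutants, without overlap (-0.52, SE 0.20, edgeR adjusted p = 0.0986). It passed without ddx41 mutant replicate 3 (adjusted p 0.0355).

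The largest fitted changes of the family, in either direction among called members, were in carriers without an assigned substrate in this grouping. SLC25A47 (ENSDARG00000059923), a liver-enriched carrier in mammals, was at 12.05, 7.44, 8.13 and 13.1 CPM in sibling replicates 1, 3, 4 and 5. It was at 1.25, 1.54 and 1.59 CPM in mutant replicates 2, 3 and 4. All mutant libraries were low, close together and below every sibling. It was 6.94-fold lower (log2 fold change -2.79, SE 0.39, edgeR adjusted p = 0.000227). Summed liver and yolk markers (4 IDs) were at 7.06 to 15.2 CPM in siblings and 5.07 to 10.1 CPM in mutants. Of these markers apoa2 fell (log2 fold change -2.43), fabp10a rose (3.58), and tfa and TTR did not pass. The fabp10a level was 0 to 0.357 CPM in siblings and 1.14 to 3.17 CPM in mutants. It met the filter only through its mutant counts, so its pass is no added support. The part of these markers in the SLC25A47 result was not tested.

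SLC25A35 (ENSDARG00000102783) was at 7.41, 4.57, 5.29 and 3.64 CPM in sibling replicates 1, 3, 4 and 5, and at 18.9, 12.4 and 14.1 CPM in mutant replicates 2, 3 and 4. The lowest mutant library was above the highest sibling. It was 2.89-fold higher (log2 fold change 1.53, SE 0.32, edgeR adjusted p = 0.00417).

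**Figure D3:**
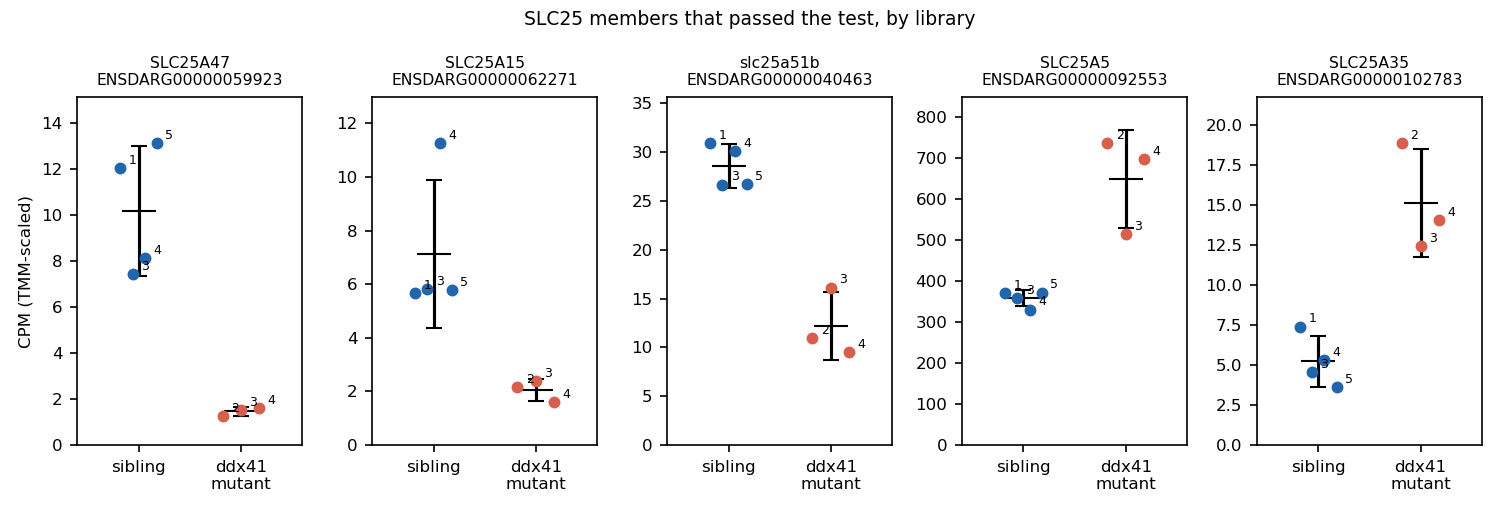
CPM with TMM scaling, on linear axes from 0, of the 5 SLC25 members that passed the test, 1 panel each. Points are libraries with their replicate number, and bars are the mean and SD of 4 siblings and 3 mutants. The groups do not overlap in any panel, and sibling replicate 4 stands alone at 11.3 CPM for SLC25A15.

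Several carriers exist as paralogs, and 8 pairs of tested members share the number after slc25a. For each pair the log2 ratio of the CPM of the 2 IDs (plus a pseudocount of 0.5) was taken within each library. The ratio did not overlap between groups in 3 of 8 pairs. Levels of single genes did not overlap in 27.5% of all tested genes, and no share over other gene pairs was computed. For SLC25A15 the log2 ratio of ENSDARG00000062271 to ENSDARG00000063539 averaged 1.65 ± 0.69 over siblings (SD, n = 4), and over mutants -1.03 ± 0.91 (SD, n = 3). The exact two-sided permutation p was 0.0286, or 0.0762 adjusted over 8 pairs. For SLC25A47 against slc25a47b it was 1.83 ± 0.56 and -1.24 ± 0.35, with the same p values from the exact permutation test. In both pairs the order of the IDs by counts turned over on average, with mutant replicate 3 at a ratio of 0 for SLC25A15. Each of these pairs holds a member already called lower, so its ratio is not separate support. The partner slc25a47b was at 1.71 to 4.36 CPM in siblings and 3.36 to 5.60 CPM in mutants. It was not called (log2 fold change 0.69, SE 0.47, edgeR adjusted p = 0.358). The slc25a55a to slc25a55b ratio was 6.52 ± 0.095 in siblings and 6.98 ± 0.28 in mutants, again with the same exact permutation p values. That separation was narrow, with sibling replicate 4 at 6.63 and mutant replicate 4 at 6.68. It rests on slc25a55b at 1.33 to 4.35 CPM. The p of 0.0286 is the smallest that 35 splits can give. With 3 of 8 pairs at that value, none passed after adjustment. The counting may divide reads between near-identical copies, and its part in these ratios was not tested.

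**Figure D4:**
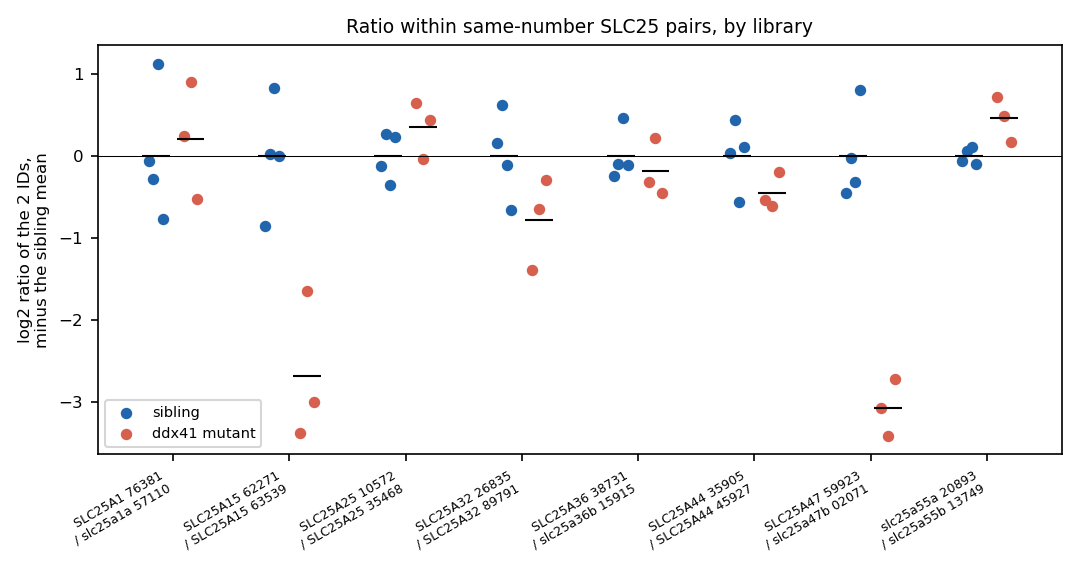
Log2 ratio of the CPM (plus 0.5) of both IDs in each of the 8 same-number SLC25 pairs, by library, minus the sibling mean, with short lines for the group means and the last digits of each ID on the axis. The mutant points of the SLC25A15 and SLC25A47 pairs differ from the siblings by -2.68 and -3.07 on average, and the mean differences of the other 6 pairs are within 1 log2 unit.

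Other genes of mitochondrial transport and of the reactions the carriers feed were set beside the family. Carriers reach the inner membrane through the TOM pore, small TIM chaperones and the TIM22 complex. Of 18 tested genes of this import route 5 rose (27.8%) and none fell, beside 8.87% and 7.69% of all tested genes. The median log2 fold change was 0.69, beside 0.04 over all tested genes. TOMM5, a small subunit of the TOM pore, was at 25.5 to 36.3 CPM in siblings and 90.6 to 143.6 CPM in mutants, 3.57-fold higher (edgeR adjusted p = 3.29e-05). The subunit gene tomm6 was 2.29-fold higher (adjusted p 0.00298). TIMM8A, TIMM29 and AGK, named after their values were seen, rose as well. Of the 18 log2 fold changes 15 were above 0 and 3 below. Those below 0 were TIMM10 (-1.38), TIMM9 (-0.21) and TIMM22 (-0.07), none of which passed. TOMM70 (0.23) and TOMM40 (0.34) did not pass either. Leaving out any one of sibling replicates 4 and 5 and ddx41 mutant replicates 2 and 3 left 3 of the import genes that rose.

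Of 27 tested genes of other mitochondrial transporters 3 rose (11.1%) and 4 fell (14.8%), beside 8.87% and 7.69% of all tested genes. For this list the log2 fold changes had a median of -0.22. UCP2, an uncoupling protein that belongs to the same carrier family but is not named by an slc25a symbol, was at 116.3 to 164.1 CPM in siblings and 31.4 to 66.3 CPM in mutants, 3.07-fold lower (edgeR adjusted p = 0.000512). Another uncoupling protein gene, ucp3, was not called (log2 fold change 0.22, edgeR adjusted p = 0.614). LETM1, which moves cations across the inner membrane, was 2.92-fold lower (adjusted p 0.000323). The calcium uniporter gene MCU and its subunit gene smdt1b fell, and VDAC1, a pore of the outer membrane, MPC2 (ENSDARG00000024478), a subunit of the pyruvate carrier, and ABCB8 rose, all 5 named after their values were seen. VDAC2 (log2 fold change -0.13, edgeR adjusted p = 0.713) and VDAC3 (0.36, edgeR adjusted p = 0.324) were not called. Without ddx41 mutant replicate 2, 2 genes of this transporter list fell.

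Of 22 tested genes of the citric acid cycle and pyruvate dehydrogenase 6 rose (27.3%) and 1 fell (4.55%), with a median of 0.41. Over all tested genes the shares were 8.87% and 7.69%. DLAT, a subunit of pyruvate dehydrogenase, was 2.33-fold higher (edgeR adjusted p = 0.000518). OGDH (ENSDARG00000103428), of the oxoglutarate dehydrogenase complex, was at 257.4 to 315.3 CPM in siblings and 80.8 to 112.6 CPM in mutants, 2.79-fold lower (adjusted p 0.000135). The paralog ogdha, in the same list, was at 108 to 132 CPM in siblings and 108 to 155 CPM in mutants. It was not called (log2 fold change 0.24, edgeR adjusted p = 0.431). Leaving out ddx41 mutant replicate 2 left 2 genes that rose, and leaving out ddx41 mutant replicate 4 left 3. IDH2, IDH3G, SDHC and PDHB, named after their values were seen, also rose.

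Of 30 tested genes of enzymes that use carried substrates 2 rose (6.67%) and 6 fell (20%), with a median of -0.07. Over all tested genes the shares were 8.87% and 7.69%. The gene cpt1ab, whose product makes acylcarnitines for import, was 1.80-fold lower (edgeR adjusted p = 0.00624). The enzyme genes ME1, glud1a, CRAT (ENSDARG00000040248), SHMT2 and mthfd2 fell and NNT rose, all named after their values were seen. Only 1 rose when sibling replicate 3, sibling replicate 4 or ddx41 mutant replicate 2 was left out. Differences between these lists and the SLC25 family were not tested.

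**Figure D5:**
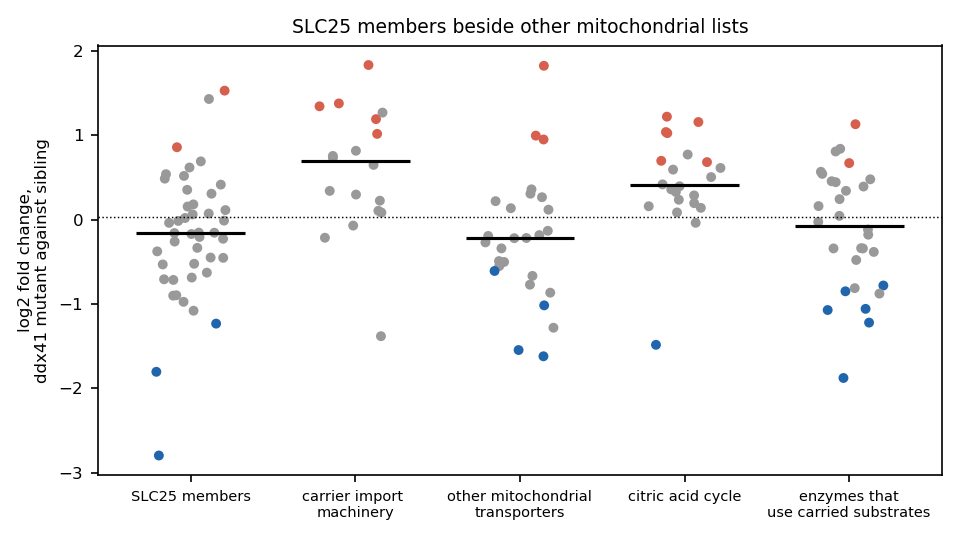
Log2 fold change of ddx41 mutants against siblings for the tested SLC25 members and for the 4 other mitochondrial lists, 1 point per gene, with a line at each median and a dotted line at the median of all tested genes. Red and blue points passed edgeR's test as higher and lower. The medians run from -0.22 for other transporters to 0.69 for the import machinery.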

How the data were processed

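Per the labels, polyadenylated RNA of gata1-positive cells was made into low-input libraries. The authors deposited raw counts per Ensembl gene, 1 column per library. Build GRCz10 and the tools STAR 2.4.2a, Cufflinks 2.2.1, Picard, Trim Galore and DESeq2 appear, without roles, in the submitters' processing notes. The counting program and strand setting were not given in the sources used here; overlapping or antisense genes may share reads. Gene symbols were looked up by Ensembl ID. Most members (40 of 56) have symbols in capitals, and 16 share theirs with another member, so they are given with their ID. Of 106 symbols in 4 gene lists 101 were matched, and of 54 markers 47, some after a paralog suffix was dropped.

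The analysis used edgeR 4.0.16 under R 4.3.3 (filterByExpr by group, minimum count 10 and total 15; TMM; quasi-likelihood F-test on 4 siblings and 3 mutants, no block; Benjamini-Hochberg at 0.05). CPM are TMM-scaled, and an SE is the log2 fold change over the root of F. The common biological coefficient of variation was 0.377. Alternatives were other scalings and filters, DESeq2 1.42.0, limma-voom (3.58.1), robust fitting, a replicate block and each library left out. No library was a duplicate: chi-square over its degrees of freedom was 17.5 to 64.4 between same-group libraries. On data simulated from these libraries over 18565 genes, 39% of 100 genes changed 2-fold and 90% of 100 changed 4-fold were recovered, and 5.15% of 136 calls were false; the changed genes had at least 5 CPM. The members, lists and tests were chosen with earlier results of these data known. Named genes were the called members, the 5 with most CPM in siblings, slc25a3 to slc25a6, slc25a20, slc25a28, slc25a39 and slc25a40, the pairs that did not overlap and the 2 smallest p values of each other list; some genes that the rule or a count covers are not reported here, and other genes given with values were added to show the rest of each class.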

Additional observations from a re-analysis of the deposited data

Results flagged for a closer look

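For 34 sets of 4 sibling values, over named genes, family shares and pair ratios, the gap between an end value and its nearest neighbour was set against the range, and 3 stood apart; chance gives about 1 in 20. SLC25A15 (ENSDARG00000062271) was at 11.3 CPM in sibling replicate 4, where the other siblings were at 5.68 to 5.81 CPM. The other SLC25A15 ID (ENSDARG00000063539) was at 3.05 CPM in sibling replicate 1, beside 1.47 to 1.61 CPM. DLAT was at 26 CPM in sibling replicate 5, beside 29 to 29.5 CPM.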

How the results depend on the processing

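All 5 called members passed in 15 of 16 alternatives, which were other scalings, filters and tools and each library left out. The exception was the replicate block, with which only SLC25A47 passed (log2 fold change -2.31, adjusted p = 0.00974), so that 0 members were higher and 1 was lower, 4 had an unadjusted p under 0.05, and the median log2 fold change was -0.23; over all genes that fit called 1023 in place of 3073, and the fit without ddx41 mutant replicate 2 called 1888. With the block 1 import gene rose (5 without it), 0 of the other transporters rose and 2 fell (3 and 4), 0 citric acid cycle genes rose and 1 fell (6 and 1), and 0 enzyme genes rose and 1 fell (2 and 6). TOMM5, LETM1, UCP2 and OGDH still passed, while tomm6 (adjusted p = 0.181), DLAT (0.0843) and cpt1ab (0.276) did not. Only numbers 3 and 4 occur in both groups. With the block, sibling replicates 1 and 5 and ddx41 mutant replicate 2 therefore add nothing to the group difference. The loss of these libraries and the pairing cannot be told apart in that fit. The labels do not say that a number marks a shared clutch, and the same-numbered libraries' deviations correlated at -0.0187 and -0.177. With the numbers crossed they correlated at -0.156 (sibling 3 with mutant 4) and 0.227 (sibling 4 with mutant 3). So few correlations cannot tell whether libraries were paired. Across the 7 fits without 1 library, 2 to 3 of 44 to 48 tested members were higher and 3 to 5 lower, and the median ran from -0.25 to -0.14. Those fits called 9.69% to 14.7% of all their tested genes. With library totals alone the median was -0.085. The difference in the family's share of counts, 0.0252 percentage points higher in mutants, was 0.0135 on the TMM scale and -0.00707 without SLC25A5 (chosen after its values were seen), and it ran from 0.0213 to 0.0287 with 1 library left out. The number of pairs whose ratio did not overlap, 3 of 8, ran from 3 to 5 with 1 library left out (5 without ddx41 mutant replicate 3) and was 2 with a pseudocount of 2 and 3 with 0.1. For 16 named members, 234 of 256 values kept direction and side of the threshold, 10 passed where they had not, 4 no longer passed and 8 changed sign, none past the threshold in either fit. Of those 8, SLC25A28 (log2 fold change -0.01) was at 0.0794 with library totals and 0.0302 with limma-voom, and ran from -0.190 to 0.0665 with 1 library left out, above 0 in 3 of 7 such fits. SLC25A4 (-0.23) was at 0.503 with the block, and ran from -0.527 to 0.135 with 1 library left out (above 0 when ddx41 mutant replicate 2 was). The slc25a39 value (-0.20) ran from -0.431 to 0.0102 (above 0 when ddx41 mutant replicate 4 was left out). The cause of these shifts was not tested. Members under about 2 CPM rest on few counts, and 12 were not tested.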
